A study of Rattus norvegicus with 96 samples.

Results

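The central nucleus of the amygdala (CeA) of alcohol-preferring P rats was compared between ethanol and water animals 24 h after the last drinking episode. These are 16 of the 96 Affymetrix rat expression arrays of the study, chosen by their titles alone: 10 arrays of rats given limited access to ethanol and 6 arrays of rats given water. The other arrays cover the same region at 1 h (11 ethanol and 6 water) and 6 h (10 ethanol and 5 water), and a second region, the accumbens shell (NAc shell), at the same 3 times, with 11 ethanol and 5 water arrays at 24 h. All groups are of the P strain, a line bred for high ethanol intake, so no comparison sets it against rats of another line. Per the labels, the ethanol was drunk in limited-access sessions, and every RNA was amplified in 2 cycles from 25 ng. The labels give neither the age and sex of the rats, nor the amount drunk, nor whether each array holds the RNA of 1 rat, so the spread between arrays may in part be technical. Each array title carries a number within its treatment, and these fall into 4 runs of consecutive numbers. At 24 h, runs 1, 2, 3 and 4 hold 2, 4, 3 and 1 ethanol arrays and 1, 3, 2 and 0 water arrays. What the runs stand for is not stated, and the single ethanol array of run 4 has no water array beside it.

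The CeA is the main output nucleus of the amygdala and consists largely of GABA-releasing neurons that also make stress and opioid peptides such as corticotropin-releasing hormone, dynorphin, enkephalin and somatostatin. Ethanol acts on GABA and glutamate transmission there, and the peptide systems of the nucleus are known for their part in drinking and in the negative state that follows it. The 24 h time is the latest of the 3 after the last drinking episode.

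All values are log2 signal levels, and a difference is ethanol minus water on the log2 scale with its standard error (SE). Array medians of the 16 arrays ran from 7.70 to 7.79, and the median correlation of each with the other CeA arrays ran from 0.971 to 0.983. RNA integrity was read from the 3′ minus 5′ signal of control probe sets. For Gapdh it was 2.84 (SD 0.58, n = 10) in ethanol and 2.94 (SD 0.52, n = 6) in water. The difference was -0.10 (exact permutation test, two-sided, p = 0.721). By run, the Gapdh mean was 2.67, 2.52, 3.49 and 2.88, so for Gapdh the runs differed more than the treatments did. For beta-actin it was 4.12 (SD 0.15) in ethanol and 4.11 (SD 0.18) in water. That difference was 0.01 (exact permutation test, two-sided, p = 0.911). Beta-actin values ran from 3.90 to 4.13 in run 3 and from 4.02 to 4.35 in run 2, so the controls did not order these runs alike. The tissue was checked against the NAc shell in the water arrays at 24 h with a list of CeA and striatal markers. Prkcd was higher by 0.74 and Crh by 2.64 (Crh did not pass the signal filter in both regions and was not tested), while the striatal markers Drd1, Adora2a and Ppp1r1b were lower by 2.54 to 2.67. The peptide genes Sst and Nts differed between the regions by -0.15 and -0.26 and did not pass limma's test. Other peptide genes on the list were lower in the CeA, with differences of -0.77 for Tac3 (limma adjusted p = 0.0162) and -2.83 for Cartpt. The receptor gene Calcrl, at -0.58, was below the signal filter. The regions may have been normalised apart, as set out below. The part of this in the smaller marker differences and their p values was not tested.

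No gene passed the test between ethanol and water at 24 h. Of 18625 probe sets tested with limma, 0 had an adjusted p under 0.05 (0%), and the smallest adjusted p was 1.00. An unadjusted p under 0.05 was reached by 122 (0.655%), 61 of them with a higher level in ethanol and 61 with a lower one (0.328% each), against the 5% of an even spread of p values. The median size of a difference was 0.05, and 95% of probe sets differed by less than 0.19. The 95% interval lay within ±0.5 for 87.9% of probe sets and within ±1 for 99.3%, so for most transcripts a difference beyond those sizes lies outside the interval. Differences of more than 0.5 were seen for 28 probe sets, 19 higher and 9 lower. The largest difference, 1.78, was that of a probe set with no gene symbol here. The next, picked out after its value was seen, was Dgkb, which encodes a diacylglycerol kinase (-1.21 ± 0.52 SE), and it varied far more among ethanol arrays (SD 1.94) than among water arrays (SD 0.38).

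With the run as a block, again 0 of 18625 passed (smallest unadjusted p 0.000134), and 450 reached the same unadjusted threshold (2.42%), 272 of them higher (1.46%) and 178 lower (0.956%). This is still under an even spread. Nearly all of the unblocked set was among them: 117 probe sets, which are 95.9% of the 122 and 26% of the 450. Fitted on the 16 arrays alone, the counts were 154 (0.827%) without and 399 (2.14%) with the block. In the unblocked fit of all CeA arrays, the ethanol difference at 1 h had 1012 probe sets at this threshold (5.43%). That at 6 h had 1531 (8.22%). With the run block the counts were 1416 at 1 h and 1690 at 6 h, beside the 450 at 24 h. In both fits 0 passed adjustment at either time. Median sizes at 1 h and 6 h were 0.08 and 0.11 without the block, and 0.08 and 0.09 with it.

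**Figure D1:**
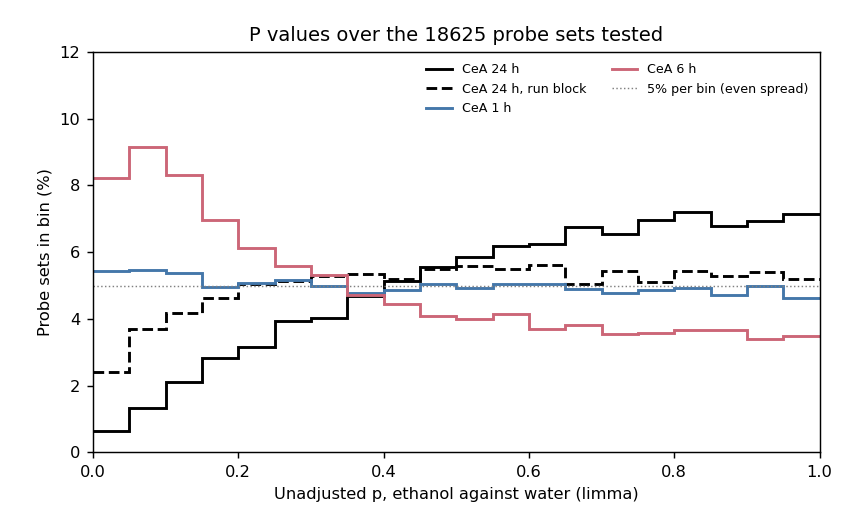
Share of the 18625 probe sets (vertical axis, percent) in each bin of unadjusted limma p (horizontal axis, bin width 0.05) for ethanol against water in the CeA at 24 h without and with the run block, and at 1 h and 6 h without it. At 24 h the lowest bin holds 0.655% and the curve climbs to 7.15% in the last bin, at 6 h the lowest bin holds 8.22%, and the dotted line marks 5%.

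Since nothing passed adjustment, the genes below are those with the smallest p in each direction, described by their values. Every p is limma's, unadjusted. Among those higher in ethanol was Uqcc6, which encodes an assembly factor of mitochondrial respiratory complex III. Its level ran from 7.99 through a median of 8.51 to 9.28 in ethanol and from 7.61 through 7.67 to 8.27 in water. In the ethanol group, 7 of 10 arrays lay above the highest water array and all 10 above the water mean. The difference was 0.74 ± 0.24 SE (95% interval 0.26 to 1.23, p = 0.00364), close to the same within runs 1, 2 and 3 (0.65, 0.71 and 0.68), and 0.75 with the run block. At 1 h and 6 h the difference was 0.35 and 0.16, and in the NAc shell at 24 h 0.39, and none of these was shown to differ from 0.74 (p = 0.249, 0.104 and 0.318).

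Rpl3, a protein of the large ribosomal subunit, ran from 9.0 through 9.08 to 9.34 in ethanol and from 8.82 through 8.92 to 9.08 in water on the probe set chosen by the smallest p. The groups overlapped, with 6 of 10 ethanol arrays above the highest water array. Its difference was 0.17 ± 0.06 SE (p = 0.00964) and lay at 0.24, 0.16 and 0.18 within runs 1 to 3. A second Rpl3 probe set with a far higher signal gave 0.09 ± 0.04 SE (p = 0.0636), and the suffix of the first marks probes that can cross-hybridise. Rpl11, another large-subunit protein, differed by 0.14 ± 0.06 SE (p = 0.0178), from 13.04 to 13.30 in ethanol against 12.87 to 13.15 in water, with 0.41, 0.10 and 0.02 within the runs. Hypk, a protein that works with the N-terminal acetylation complex at the ribosome, ran from 10.62 to 11.12 against 10.49 to 10.93 and differed by 0.21 ± 0.09 SE (p = 0.0197). Polr3c, a subunit of RNA polymerase III, differed by 0.26 ± 0.11 SE (p = 0.0205).

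Eif3a encodes a scaffold subunit of the translation initiation factor eIF3. Its named probe set differed by 0.79 ± 0.28 SE (p = 0.00701), with ethanol arrays from 6.99 to 7.99. Water arrays reached from 4.91 to 7.22, and 1 of them, water-3, made the low end. Without water-3 the difference was 0.45, and a second, more strongly lit Eif3a probe set gave -0.05. Praf2, a membrane protein of the prenylated Rab acceptor family, depended on 1 array more strongly: its difference of 1.20 ± 0.47 SE (p = 0.014) was 0.15 without water-7, whose value of 4.44 stood against 10.15 to 11.28 in the other water arrays.

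Of the remaining higher genes, Cfap36, which encodes a protein associated with cilia, separated the groups most clearly. Its levels were 8.69 through 9.29 to 9.95 in ethanol and 8.53 through 8.84 to 8.89 in water, so 9 of 10 ethanol arrays lay above every water array. The difference was 0.56 ± 0.21 SE (95% interval 0.13 to 0.98, p = 0.0118) and 0.76, 0.42 and 0.58 within runs 1 to 3. At 1 h and 6 h it was -0.17 and -0.09, and in the NAc shell at 24 h 0.55. The other Cfap36 probe set gave 0.19 ± 0.12 SE (p = 0.115). Eml1, a microtubule-binding protein, differed by 0.14 ± 0.06 SE (p = 0.0119), with 0.08 and -0.02 on its other probe sets. Nsrp1, a splicing regulator, differed by 0.32 ± 0.13 SE (p = 0.0182), with 0.03 on its other probe set. All 10 genes of this higher set had the same sign within each of runs 1 to 3, which 17.6% of all probe sets tested did. The fit that chose them used these arrays, so that count is a description.

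**Figure D2:**
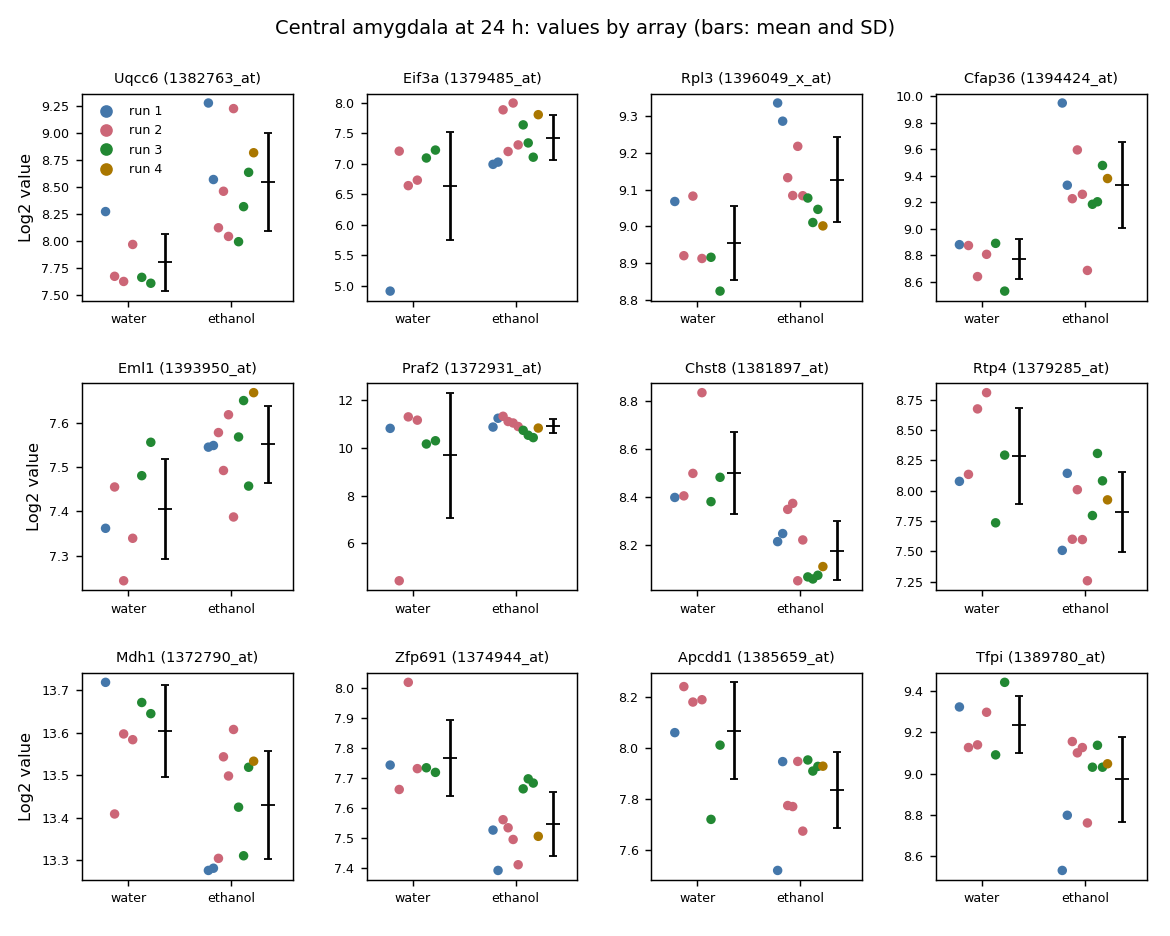
Log2 level (vertical axis) of 12 leading genes in each of the 16 CeA arrays at 24 h, water beside ethanol, with points coloured by run and bars showing the group mean and SD. The low water arrays of Eif3a (4.91) and Praf2 (4.44) stand apart, and Chst8 is the gene whose 10 ethanol arrays all lie below its 6 water arrays.

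Chst8 led the lower genes. It encodes a Golgi sulfotransferase that adds sulfate to N-acetylgalactosamine on hormone sugar chains, such as those of the pituitary glycoprotein hormones. Its level ran from 8.05 through 8.16 to 8.37 in ethanol and from 8.38 through 8.44 to 8.83 in water. Every ethanol array lay below every water array, which held for 1 of the 18625 probe sets (0.00537%), while 0 probe sets had every ethanol array above. The margin between the nearest arrays was small, 8.37 against 8.38, and water-9 stood above the other water arrays. The difference was -0.32 ± 0.10 SE (95% interval -0.53 to -0.11, p = 0.00332), -0.32 with the run block, and -0.17, -0.33 and -0.37 within runs 1 to 3. At 1 h and 6 h it was -0.08 and -0.14, and the change from those times to 24 h had p = 0.0985 and 0.238. It was below the signal filter in the NAc shell.

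Genes of the antiviral and antigen-presentation systems were among the lower ones. Rtp4, an interferon-induced chaperone of receptors, ran from 7.26 through 7.86 to 8.31 in ethanol and from 7.74 through 8.21 to 8.81 in water. The groups overlapped, with 4 of 10 ethanol arrays below every water array. Its difference was -0.46 ± 0.16 SE (95% interval -0.79 to -0.14, p = 0.00592), but it lay in runs 1 and 2 (-0.25 and -0.92) and not in run 3 (0.05). RT1-S3, a class Ib molecule of the rat major histocompatibility complex, ran from 8.72 through 9.02 to 9.35 against 8.82 through 9.61 to 9.97, a difference of -0.42 ± 0.17 SE (p = 0.0171). Within runs it was 0.20, -0.75 and -0.14, and a second RT1-S3 probe set gave -0.44 ± 0.23 SE (p = 0.0627); genes of this complex are so alike that their probes can share signal. Irgm, an interferon-induced GTPase, was at 7.18 through 7.29 to 7.46 against 7.18 through 7.46 to 7.95, and differed by -0.26 ± 0.11 SE (p = 0.0193). Its values within the runs were -0.16, -0.40 and -0.05, and each of these 3 differences was largest within run 2.

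The other lower genes have unlike roles. Mdh1, the cytosolic malate dehydrogenase, ran from 13.28 to 13.61 against 13.41 to 13.72 and differed by -0.17 ± 0.06 SE (p = 0.00627) on one probe set, while its other probe set gave 0.02. Zfp691, a zinc finger protein, ran from 7.39 to 7.70 against 7.66 to 8.02, with 7 of 10 ethanol arrays below every water array. Its difference was -0.22 ± 0.08 SE (p = 0.00757). Tfpi, the inhibitor of the tissue factor pathway of clotting, ran from 8.53 through 9.04 to 9.16 against 9.09 through 9.22 to 9.44 and differed by -0.26 ± 0.10 SE (p = 0.012) on one probe set and -0.01 on another. Apcdd1, a Wnt inhibitor, differed by -0.23 ± 0.09 SE, Atp23, a mitochondrial inner membrane peptidase, by -0.31 ± 0.12 SE, and Acy3, an aminoacylase, by -0.19 ± 0.08 SE (p = 0.0117, 0.0145 and 0.0217). Of the 10 lower genes, 7 had the same sign within runs 1 to 3. All 10 were also below 0 at 1 h and 7 at 6 h, against 44.5% and 53.9% of all probe sets. Of the 10 higher genes, 4 were above 0 at each of these times, against 55.5% and 46.1%.

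The run block brought other genes forward and kept 7 of those above in its own leading sets, 3 higher and 4 lower. Each of the 7 that it added on the higher side had a smaller difference on every other probe set tested. Necap1, which takes part in clathrin-coated vesicle formation at nerve terminals, differed by 0.29 ± 0.09 SE (p = 0.00153), and by -0.0034 on a probe set with a far higher signal. Insyn1, a component of the inhibitory postsynapse, differed by 0.29 ± 0.09 SE (p = 0.00245), and by 0.10 on the other. Magi1, a scaffold of cell junctions, differed by 0.23 ± 0.07 SE (p = 0.003), and by 0.05, 0.02 and 0.19 on the others. Ppp2r5d, a regulatory subunit of protein phosphatase 2A, differed by 0.25 ± 0.08 SE (p = 0.00405), and by 0.15 on the other. Tmem38b, a potassium channel of intracellular calcium stores, gave 0.36 ± 0.10 SE (p = 0.00119), and 0.08 on the other. Ttyh1, a membrane protein of neural cells, gave 0.27 ± 0.08 SE (p = 0.00259), and 0.18, 0.04 and 0.03 on the others. Tcaf1, a regulator of TRP channels, gave 0.17 ± 0.06 SE (p = 0.00354), and 0.09 on the other.

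On the lower side the block added 6 genes. Lyplal1, a lysophospholipase-like protein, ran from 9.06 through 9.24 to 9.39 in ethanol and from 9.31 through 9.40 to 9.51 in water, with 8 of 10 ethanol arrays below every water array. Its blocked difference was -0.17 ± 0.06 SE (p = 0.00312), and -0.21, -0.12 and -0.25 within runs 1 to 3. Zc3h4, which restrains transcription of noncoding RNA, differed by -0.33 ± 0.10 SE (p = 0.0019), with -0.31, -0.26 and -0.32 within the runs, but its other probe set, of higher signal, gave 0.08 ± 0.06 SE. Gart, an enzyme of purine synthesis, differed by -0.24 ± 0.08 SE (p = 0.00494), and by -0.04 on its other probe set. Tchh, Slx9 and the relaxin gene Rln1 differed by -0.43, -0.34 and -0.23 (p = 0.00439, 0.00579 and 0.00557).

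Gene lists were read as groups, with 1 probe set a gene, against the 48.8% of all probe sets that were above 0 and the 51.2% below 0. With the run block 50.3% of all were above 0. The lists were written with earlier results of these data known, so the shares of members describe the lists and are no test of them. Of the 32 interferon-regulated genes listed, 26 were on the array and 15 passed the filter on low signal. Of these 15, 13 were below 0 and 2 (Rtp4 and Irf7) were lower at an unadjusted p under 0.05, against 0.328% of all probe sets. Their median difference was -0.05. At 1 h and 6 h the list's median was -0.03 and -0.16, and in the NAc shell at 24 h -0.02 over the 11 members tested there. Irf7, the transcription factor that amplifies the interferon response, ran from 6.90 through 7.10 to 7.56 in ethanol and from 7.15 through 7.37 to 7.85 in water, with 6 of 10 ethanol arrays below every water array. It differed by -0.24 ± 0.12 SE (p = 0.045) and by 0.03, -0.42 and -0.15 within runs 1 to 3. Without water-9 it was -0.16 (p = 0.195). Usp18, which removes the ubiquitin-like ISG15 from proteins, differed by -0.27 ± 0.17 SE (p = 0.108; -0.14 without water-9), Isg15 itself by -0.23 ± 0.17 SE (p = 0.182), and Ifi44 by -0.14 ± 0.12 SE (p = 0.24). With the run block 3 members were lower at this threshold, Usp18 among them (-0.31, p = 0.0379), against 0.956% of all probe sets.

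The median of the interferon list was 0.01, -0.28 and 0.05 within runs 1, 2 and 3. Run 2 was thus the only one of the 3 below 0. Of the meningeal fibroblast markers all 8 tested of 12 listed were below 0, 0 at an unadjusted p under 0.05, with a median of -0.16 and -0.18, -0.44 and 0.12 within the runs. Their median at 1 h and 6 h was -0.03 and -0.19. Their mean level at 24 h ran from 7.17 through 7.63 to 8.13 in ethanol and from 7.33 through 7.84 to 8.36 in water. Ogn, Dcn and Fmod, all proteoglycans of connective tissue, differed by -0.43 ± 0.30, -0.23 ± 0.18 and -0.22 ± 0.13 SE. Single arrays moved these values: Ogn was -0.69 without water-14, and Dcn and Fmod were -0.14 and -0.11 without water-8. Of the microglia markers, 7 of 11 tested were below 0, with a median of -0.02 and 0.05, -0.20 and 0.10 within the runs, and Cx3cr1 differed by -0.12 ± 0.08 SE. Within the runs the thalamic, hypothalamic and pallidal markers were at -0.02, -0.35 and 0.19 and the oligodendrocyte markers at 0.24, -0.46 and 0.37, so run 2 was the lowest for those lists too. The part of meningeal or immune cells in the interferon values was not tested, and fewer cells of a type cannot be told apart from less RNA per cell.

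The promoters of 3 interferon-induced genes (Irgm was not on the list) are shown because Irf7 and Irgm were the lower ones with a window in the RefSeq table and Ifi44 held the motif at more than 1 place. Capitals mark each match to GAAA, any 2 bases, then GAAA, the core of the interferon-stimulated response element, searched on both strands of the window from 250 bases before to 50 after the start site (RefSeq, build GRCr8, all 3 genes on the minus strand and printed 5′ to 3′ along the gene).
Irf7, chr1:205800058-205800117: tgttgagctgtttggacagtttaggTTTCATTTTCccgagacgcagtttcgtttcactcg
Irgm, chr10:33742578-33742637: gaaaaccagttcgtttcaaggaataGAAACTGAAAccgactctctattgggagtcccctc
Ifi44, chr2:243303791-243303891: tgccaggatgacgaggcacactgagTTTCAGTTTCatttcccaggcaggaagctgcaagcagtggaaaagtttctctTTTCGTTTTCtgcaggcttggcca
The match began 69 bases before the start site in Irf7, on the opposite strand, and 34 bases before it in Irgm, on the gene's own strand. Of the 15 interferon genes tested, 10 had a window and 7 of these held the motif (70%), against 3.92% of all 33469 windows. A gene was counted when any of its windows matched, while the 3.92% counts single windows. Because the genes were listed as interferon-regulated, a high share was built into the list and says nothing about the values at 24 h. The 3 without a match, Irf1, Irf9 and Stat2, differed by -0.02, -0.02 and 0.06, and among those with one were Psmb8 at 0.05 and B2m at -0.03. A match describes the letters of the window and is no measurement of binding.

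Inflammatory signalling genes were also mostly below 0, 10 of 13 tested, with a median of -0.11 and 0 at an unadjusted p under 0.05 in either direction. Within runs 1, 2 and 3 the medians were -0.07, -0.10 and 0.04. Nfkb1, the precursor of an NF-kappaB subunit, differed by -0.12 ± 0.11 SE, and Tlr2, a receptor for microbial lipoproteins, by -0.15 ± 0.14 SE.

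The list most above 0 held genes of striatal projection neurons and dopamine signalling, which also mark medium spiny-like neurons of the CeA and the striatum that borders it. Of 20 tested of 24 listed, 18 were above 0, with a median of 0.17 and 0 at an unadjusted p under 0.05 (0.655% of all probe sets). With the run block all 20 were above 0, with a median of 0.21, and the medians within runs were 0.18, 0.33 and 0.15. Drd2, the dopamine D2 receptor, ran from 8.63 through 9.0 to 9.83 in ethanol and from 8.26 through 8.86 to 9.30 in water, a difference of 0.30 ± 0.24 SE (p = 0.229) that was 0.18 without water-9. Gng7, Rgs9 and Rasd2, which act in striatal G protein signalling, differed by 0.26 ± 0.22, 0.25 ± 0.24 and 0.15 ± 0.13 SE. Without water-9 Rgs9 was at 0.08, and without water-14 Rasd2 was at 0.087. At 1 h and 6 h and in the NAc shell at 24 h the list's median was -0.02, 0.06 and 0.02.

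The spread of that list between arrays was far larger than its difference. Its mean level ran from 9.37 through 10.19 to 10.45 in ethanol and from 9.33 through 9.91 to 10.39 in water, so the groups overlapped over nearly their whole range. The lowest arrays were water-9 (9.33), ethanol-31 (9.37), ethanol-24 (9.66) and ethanol-13 (9.71). In oligodendrocyte markers these 4 were among the 5 highest of the 16 arrays, at 12.38, 12.22, 11.98 and 12.37. The oligodendrocyte list ran from 11.15 through 11.36 to 12.37 in ethanol and from 10.52 through 11.78 to 12.38 in water, and its median difference was -0.02. Its part in the other values was not tested.

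**Figure D3:**
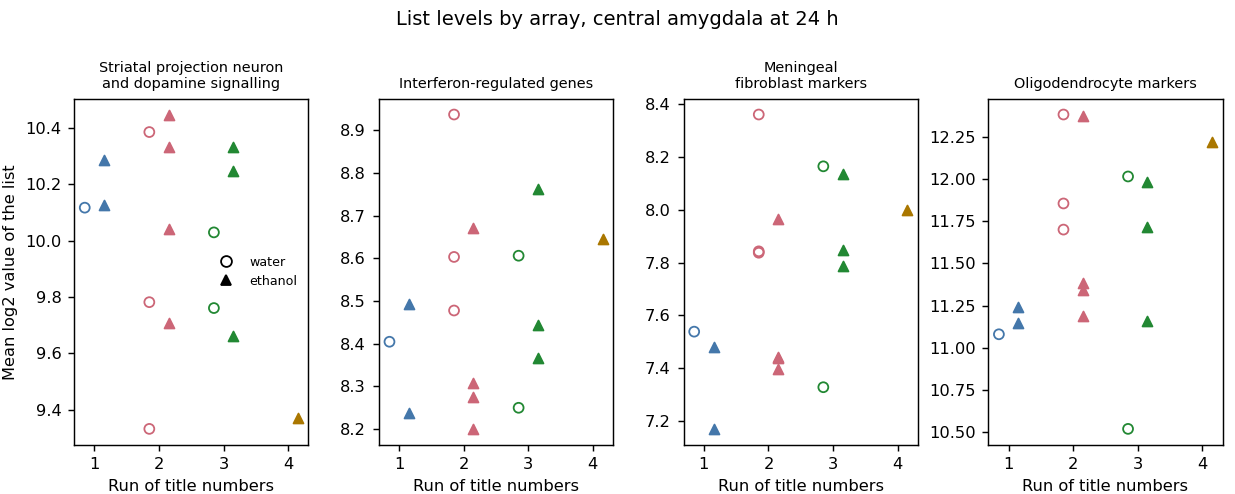
Mean log2 level (vertical axis) of the members of 4 gene lists in each of the 16 CeA arrays at 24 h, by run of title numbers (horizontal axis), with open circles for water and triangles for ethanol. In run 2 the ethanol arrays lie mostly below the water arrays in the interferon and meningeal lists, and the arrays lowest in the striatal list (9.33 and 9.37) are high in the oligodendrocyte list (12.38 and 12.22).

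Neuropeptides and their receptors varied in the same broad way. Of 34 listed, 25 were tested and 16 were above 0, with a median of 0.06 and 0 at an unadjusted p under 0.05. At 1 h the median was -0.09 with 7 above 0, and at 6 h 0.36 with 23 above 0. Crh, which encodes corticotropin-releasing hormone, differed by 0.60 (p = 0.31), and its SD was 1.15 in ethanol and 1.19 in water. Oprk1, the kappa opioid receptor for dynorphin, ran from 9.08 through 9.86 to 10.33 in ethanol and from 8.88 through 9.31 to 10.04 in water. Its difference was 0.37 ± 0.28 SE (p = 0.19), and 0.47 ± 0.20 SE (p = 0.0211) with the run block. Tac1, the precursor of substance P, differed by 0.26 ± 0.22 SE, while Adcyap1 and Vip, which encode the related peptides PACAP and VIP, differed by -0.33 ± 0.22 and -0.42 ± 0.36 SE. Without water-14 these 3 were at 0.16, -0.11 and -0.26. Pdyn, Penk, Sst, Nts and Npy differed by 0.32, 0.21, 0.29, 0.21 and 0.00, and none of these passed p = 0.05.

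GABA genes gave 10 of 14 tested above 0, with a median of 0.07 and 0 at an unadjusted p under 0.05. Gad1 and Gad2, which make GABA, differed by 0.03 ± 0.04 and 0.21 ± 0.19 SE, the interval of Gad1 was -0.04 to 0.10, and Gad2 was at 0.07 without water-3. Gabbr1, a subunit of the GABA-B receptor, ran from 12.84 through 12.99 to 13.21 against 12.71 through 12.88 to 13.04 and differed by 0.13 ± 0.07 SE (p = 0.0776). Gabra2, a GABA-A receptor subunit, differed by 0.35 ± 0.27 SE (p = 0.212) and by 0.46 ± 0.20 SE (p = 0.0283) with the run block, but by 1.12, 0.64 and -0.19 within runs 1 to 3, and by 0.23 without water-3 and without the block. Glutamate receptors and scaffolds gave 12 of 22 above 0 with a median of 0.01. In that list 2 members were higher at an unadjusted p under 0.05 with the run block (1.46% of all probe sets): Shank3, a postsynaptic scaffold (0.28, p = 0.0363), and Gria1, an AMPA receptor subunit (0.41, p = 0.041). Gria1 lay at 1.23, 0.57 and -0.24 within the runs. Without the block Shank3 differed by 0.26 ± 0.15 SE, or 0.15 without water-9, and Gria1 by 0.31 ± 0.26 SE, or 0.50 without water-14.

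Other neuronal lists had medians between -0.04 and 0.02 and 0 members at an unadjusted p under 0.05 without the block. Vesicle release gave 11 of 19 above 0 (median 0.02), with 2 higher at that threshold with the block (1.46% of all probe sets), and potassium channels with their Kv4 partners 11 of 21 (median 0.01). Cplx2, a complexin that controls vesicle fusion, differed by 0.33 ± 0.20 SE (p = 0.106) without and 0.33 ± 0.11 SE (p = 0.00569) with the run block, and by 0.93, 0.24 and 0.17 within runs 1 to 3. Genes of CREB, BDNF and plasticity kinases gave 15 of 23 (median 0.02), and immediate early genes 6 of 19 (median -0.04). In the last list Nr4a2, an orphan nuclear receptor, differed by -0.28 ± 0.16 SE (p = 0.0814) and Ier2 by -0.24 ± 0.15 SE (p = 0.101).

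**Figure D4:**
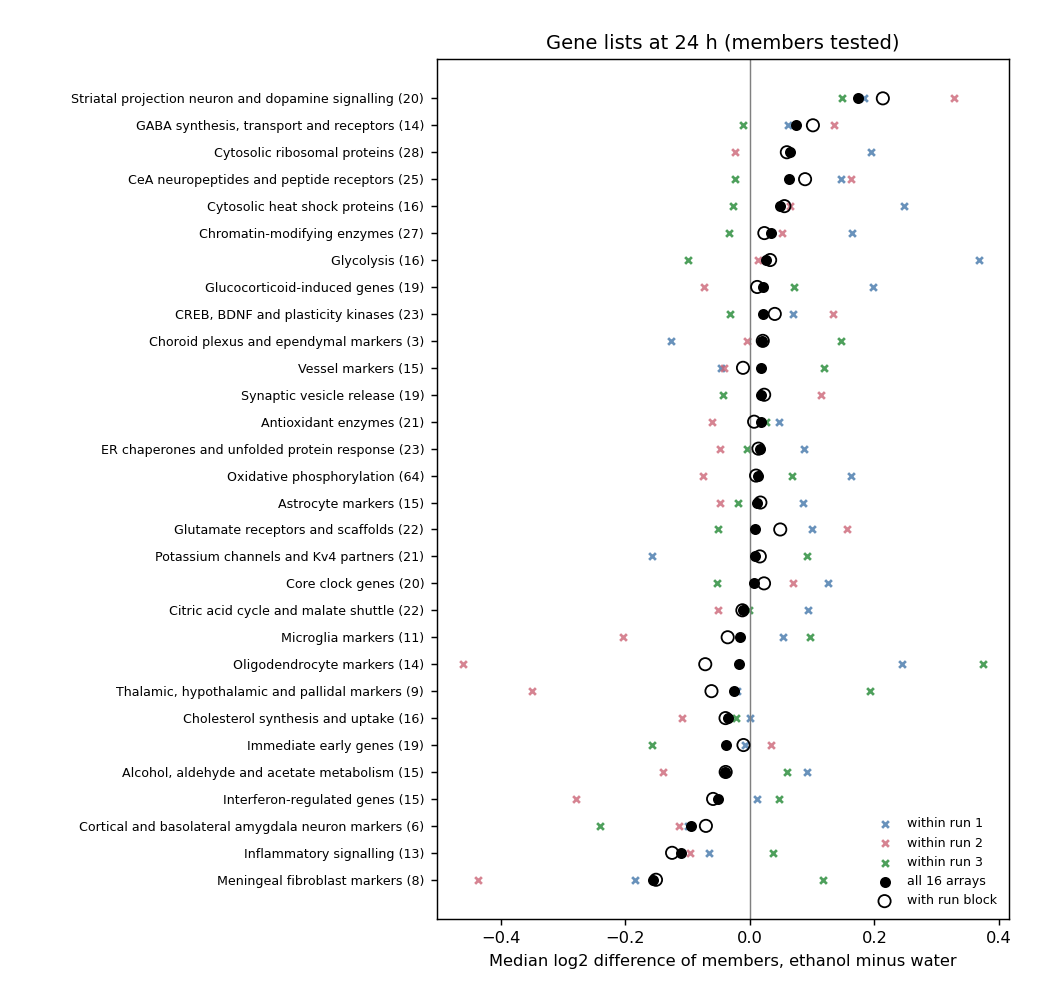
Median log2 difference, ethanol minus water, of the tested members of each gene list at 24 h (horizontal axis; number tested in brackets), over all 16 arrays without and with the run block, and within runs 1, 2 and 3. The medians over all 16 arrays lie between -0.16 for the meningeal and 0.17 for the striatal list, and those within single runs scatter more widely, as for oligodendrocyte markers at 0.24, -0.46 and 0.37.

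Metabolic lists showed small differences throughout. Cytosolic ribosomal proteins gave 25 of 28 tested above 0, with a median of 0.06 and 1 (Rpl11) higher at an unadjusted p under 0.05 (0.328% of all probe sets). Within runs the ribosomal median was 0.19, -0.02 and 0.06, and at 6 h and in the NAc shell at 24 h it was -0.08 and 0.14. Water-3, the only water array of run 1, had a Gapdh 3′ minus 5′ value of 3.40 against 2.19 and 2.41 in the ethanol arrays of that run. Its beta-actin value lay on the other side, 3.86 against 4.16 and 4.01. The part of RNA quality in the run 1 values was not tested. Oxidative phosphorylation gave 40 of 64 above 0 with a median of 0.01, where the same genes had 1 of 64 above 0 at 6 h (median -0.18; 46.1% of all probe sets were above 0) and 63 of 64 in the NAc shell at 24 h (median 0.10; 53.8% of all). Its members with the smallest p were Uqcrc2, a core protein of complex III (-0.15 ± 0.08 SE, p = 0.071), and Cox8a of cytochrome oxidase (0.11 ± 0.06 SE, p = 0.0954).

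Glycolysis gave 12 of 16 above 0 (median 0.03), with 0.37, 0.01 and -0.10 within runs 1 to 3, and the citric acid cycle with the malate shuttle 10 of 22 (median -0.01). In the latter Slc25a11, the mitochondrial oxoglutarate and malate carrier, differed by -0.13 ± 0.07 SE (p = 0.0575). Genes of alcohol, aldehyde and acetate metabolism gave 5 of 15 above 0 with a median of -0.04, and Adh5, the class III alcohol dehydrogenase, differed by 0.09 ± 0.08 SE. Antioxidant enzymes gave 12 of 21 (median 0.02). Cholesterol synthesis and uptake gave 4 of 16 above 0 with a median of -0.04, and its leading members Stard4, a sterol carrier, and Lss, lanosterol synthase, differed by -0.19 ± 0.11 and -0.18 ± 0.11 SE. The other probe set gave -0.08 ± 0.13 SE for Stard4 and 0.12 ± 0.11 SE, the opposite sign, for Lss.

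Of the stress and rhythm lists, cytosolic heat shock proteins gave 12 of 16 above 0, with a median of 0.05 and 1 higher at an unadjusted p under 0.05 (0.328% of all probe sets), or 3 with the run block (1.46% of all). Without the block that gene was Hspe1, the mitochondrial chaperonin partner placed on this list. It ran from 13.47 through 13.62 to 13.69 in ethanol and from 13.44 through 13.49 to 13.55 in water, with 7 of 10 ethanol arrays above every water array, and differed by 0.10 ± 0.04 SE (p = 0.0223). Dnajb1, a co-chaperone of Hsp70, differed by 0.13 ± 0.07 SE (p = 0.0522), and by -0.0074 ± 0.12 SE on its other probe set. Chaperones of the endoplasmic reticulum gave 12 of 23 above 0 (median 0.02), with Hyou1 at 0.26 ± 0.18 SE. Glucocorticoid-induced genes gave 12 of 19 (median 0.02), with Fkbp5, a co-chaperone of the glucocorticoid receptor, at 0.22 ± 0.16 SE. The other Fkbp5 probe set gave 0.09 ± 0.18 SE. Core clock genes gave 10 of 20 (median 0.01). Nr1d1, the clock repressor REV-ERB alpha, ran from 8.30 through 8.62 to 8.90 in ethanol and from 8.61 through 8.84 to 8.98 in water and differed by -0.20 ± 0.10 SE (p = 0.0504). Chromatin-modifying enzymes gave 15 of 27 above 0 (median 0.03).

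Markers of the remaining cell types gave no member at an unadjusted p under 0.05. Astrocyte markers had 8 of 15 above 0 (median 0.01) and vessel markers 8 of 15 (median 0.02). Cortical and basolateral amygdala markers had 3 of 6 (median -0.09) and thalamic, hypothalamic and pallidal markers 4 of 9 (median -0.03). Of the choroid plexus list 3 were tested and 2 were above 0, and of the blood list 1 was tested, Hbb, at 0.10 ± 0.22 SE.

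Whether the ethanol difference at 24 h differed from that at earlier times was tested directly. For 24 h minus 1 h, 0 of 18625 probe sets had an adjusted p under 0.05 and 351 an unadjusted one (1.88%), 125 above 0 (0.671%) and 226 below (1.21%). For 24 h minus 6 h the counts were 0 and 340 (1.83%), 226 above 0 (1.21%) and 114 below (0.612%). Among the leading genes of 24 h minus 1 h, most of the change of Msl1 and Smarce1 was a difference at 1 h. Msl1, of a histone acetyltransferase complex, differed by 0.00 at 24 h and 0.76 at 1 h (change -0.76 ± 0.24 SE, p = 0.00269), and Smarce1, of the SWI/SNF complex, by 0.82 at 1 h (change -0.80 ± 0.26 SE, p = 0.0038). Other probe sets of these genes gave changes of -0.0080 and -0.25 for Msl1 and 0.02 and 0.05 for Smarce1. Rnf144a, a ubiquitin ligase, changed by -0.54 ± 0.17 SE (p = 0.00328; -0.41 and -0.16 on the others), and Sipa1l3, a Rap GTPase regulator, by 0.49 ± 0.16 SE (p = 0.0031).

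Against 6 h, the genes with the smallest p had opposite signs at the compared times. Tcp1, a subunit of the cytosolic chaperonin, was at 0.13 at 24 h and -0.13 at 6 h (change 0.26 ± 0.08 SE, p = 0.00336). Prkaca, the catalytic subunit of protein kinase A, was at 0.13 ± 0.07 SE at 24 h and -0.19 at 6 h (change 0.32 ± 0.10 SE, p = 0.00347). RT1-T24-3, another histocompatibility gene, went from -0.84 at 6 h to 0.87 at 24 h (change 1.71 ± 0.58 SE, p = 0.00467). Zfp451, a SUMO ligase, changed by -0.29 ± 0.10 SE (p = 0.00477), and by -0.13 on its other probe set.

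The CeA difference at 24 h was set against that in the NAc shell in a fit of all 96 arrays, with the arrays taken as independent, because no label ties a CeA array to an accumbens array of the same rat. Of 17572 probe sets, 0 had an adjusted p under 0.05 and 180 an unadjusted one (1.02%), 96 above 0 (0.546%) and 84 below (0.478%). Mrto4, a ribosome assembly factor, was at -0.12 here and at 0.25 in the accumbens (difference -0.37 ± 0.10 SE, p = 0.000333; 0.02 on its other probe set). Ndufaf7, an assembly factor of respiratory complex I, differed between the regions by -0.30 ± 0.09 SE (p = 0.000949), and by -0.22 on its other probe set (p = 0.034). Fhit, a nucleotide hydrolase, differed by -0.43 ± 0.14 SE (p = 0.00229), and Clpb, a mitochondrial disaggregase, by -0.34 ± 0.11 SE (p = 0.00292), against 0.11 and 0.10 on the other Clpb probe sets. The regions may have been normalised apart: lower quartiles were 5.75 to 5.88 for CeA arrays and 6.01 to 6.16 for accumbens arrays. Levels are therefore not set against each other beyond the marker check.

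**Figure D5:**
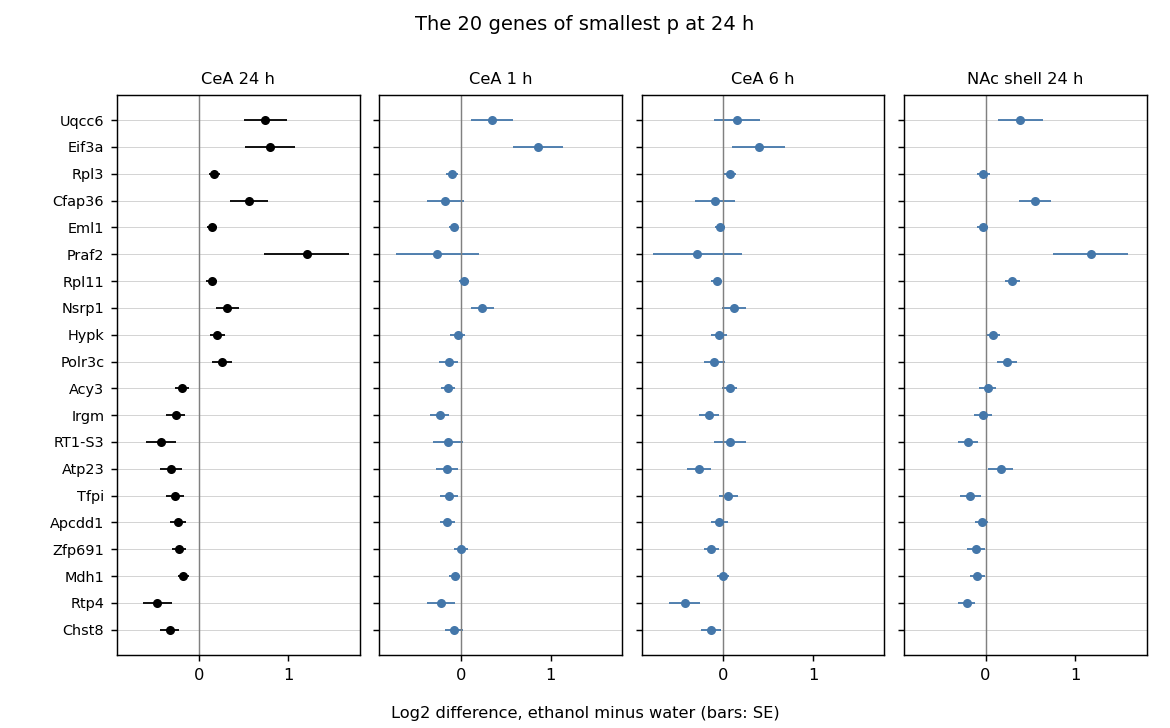
Log2 difference, ethanol minus water, of the 20 leading genes in the CeA at 24 h, 1 h and 6 h and in the NAc shell at 24 h, each with its SE. Of the 10 higher genes, 4 were also above 0 at 1 h and 4 at 6 h, and of the 10 lower genes, all 10 were below 0 at 1 h and 7 at 6 h.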

How the data were processed

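The deposited table holds log2 signal values, 1 column per array, made by the authors with RMA per the submitters' processing notes (version not given). No raw intensities were used here. All 96 columns matched a labelled array. Of 31099 probe sets, 57 controls were left out. Of the other 31042, 20826 carried 1 gene symbol in the platform annotation, 436 several and 9780 none, and symbols of 20758 were updated by Entrez ID.

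Probe sets with a mean over the 48 CeA arrays above the 40th percentile (6.96) were tested: 18625. limma 3.58.1 in R 4.3.3 fitted 6 group means of treatment and time, with a trended prior variance, and p values were adjusted by Benjamini-Hochberg. A second fit added the run of title numbers. Promoter matches used Python 3.11.15. The scripts were tested on simulated data.

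Genes named were, 1 probe set a gene, the 10 with the smallest p in each direction in each fit, up to 4 members of each list, and the 4 with the smallest p in each difference test. Lists used the probe set with the highest mean. The comparison, the runs, the members and the lists were chosen with earlier results of these data known. Alternatives changed the filter, scaling, weights, covariates, arrays and blocks. Array number limits the precision.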

Additional observations from a re-analysis of the deposited data

Results flagged for a closer look

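Within a treatment at 24 h, 184 combinations of a group with a probe set or an array measure were looked at. In 11 of them an end array stood apart from the others by Dixon's test at 95%, where chance gives about 1 in 20. The probe sets were among those named here, chosen by p values from fits that used these arrays. Eif3a was at 4.91 in water-3 (nearest other water array 6.64) and Praf2 at 4.44 in water-7 (10.15). The Praf2 difference of 1.20 was 0.15 without that array, and the Eif3a difference of 0.79 was 0.45. Chst8 was at 8.83 in water-9 (8.50) and Zfp691 at 8.02 in water-8 (7.74). Atp23 was at 8.02 in water-14 (8.46), Ogn at 6.45 in water-14 (7.81) and Sipa1l3 at 8.21 in water-15 (8.60). Tac1 was at 8.51 in water-8 (7.65). In the ethanol group, Adcyap1 was at 8.33 in ethanol-14 (7.59), and Stard4 and Dcn at 8.62 and 6.67 in ethanol-4 (9.12 and 7.24).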

How the results depend on the processing

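The count of 0 probe sets at an adjusted p under 0.05 held in all settings run but the fit within run 1. There 24 h rests on 2 ethanol arrays and 1 water array. The only groups of that fit with more than 1 array are ethanol at 24 h and ethanol at 1 h. Its spread therefore comes from these pairs and from limma's prior variance. Eif3a was at 2.09 there.

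The 122 probe sets at an unadjusted p under 0.05 became 430 without the filter, 48 at the 60th percentile, 671 with array weights, 281 without run 4, 450 with the run block, and 3333, 581 and 885 within runs 1, 2 and 3. Requantiled values gave 137, the Gapdh value as a covariate 162 and the 16 arrays alone 154. Leaving out the 4 CeA arrays that correlate least with the rest (none of the 16, chosen after seeing the data) gave 178. These arrays were ethanol-27 of 1 h and ethanol-30, water-16 and water-17 of 6 h, all in run 4. The water group at 6 h has 5 arrays and 2 of them are these, so the 6 h values rest in part on them. The 450 with the run block became 1041 without the filter, 258 at the 60th percentile and 3148 with array weights. The 351 of 24 h minus 1 h became 1210 of 31042 without the filter and 789 of 18625 with the run block. The 340 of 24 h minus 6 h became 652 of 31042 without the filter. The 180 of CeA minus NAc shell became 872 of 31042 without the filter and 349 of 17572 with the run block. The cause was not tested.

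Leaving out 1 array in turn, the unblocked count ran from 79 (without water-15) to 291 (without water-14), the blocked from 251 (water-15) to 1249 (water-14), 24 h minus 1 h from 160 (water-15) to 687 (water-8), 24 h minus 6 h from 147 (water-14) to 616 (water-9), and CeA minus NAc shell from 131 (water-9) to 294 (water-3), with 0 past adjustment each time. Of the list members, Nr4a2 went to -0.19 and Lss to -0.11 without water-9, Uqcrc2 to -0.093 and Hyou1 to 0.16 without water-8, and Fkbp5 to 0.14 and Nfkb1 to -0.07 without water-15.

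The title numbers did not pair the arrays: over 17 same-numbered pairs the correlation of deviations averaged 0.0725 (-0.781 to 0.748), 8 were over 0.1, and in 0 pairs did both arrays correlate best with their own number. With that number as a replicate block, 1484 probe sets were at an unadjusted p under 0.05 and 0 passed (smallest adjusted p 0.116).

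Of 2627 alternative values of 96 gene results, 2603 kept their sign and 24 reversed. Within run 3 these were Rtp4 0.047, Apcdd1 0.065, Gabra2 -0.19, Gad2 -0.40, Gria1 -0.24, Ier2 0.15, Adh5 -0.083, Hyou1 -0.051, Dnajb1 -0.059, Usp18 0.12, Isg15 0.25, Ogn 0.45, Dcn 0.014 and Tcf7l2 0.19. Within run 1 they were RT1-S3 0.20, Adcyap1 0.25, Oprk1 -0.0098, Gad1 -0.075, Irf7 0.025, Lss 0.012 and Cx3cr1 0.053, within run 2 Rasd2 -0.052 and Slc25a11 0.047, and under the replicate block Irgm 0.025. The cause was not tested.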
